A study of Mus musculus with 50 samples.

Results

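The 7 adrenergic receptor genes *Adra1a*, *Adra1b*, *Adra1d*, *Adra2a*, *Adra2b*, *Adra2c* and *Adrb1* were taken by symbol from the 24552 gene symbols of the deposited count tables, and all 7 had counts enough to be tested in every comparison. Noradrenaline and adrenaline act on them. The alpha1 receptors (Adra1a, Adra1b, Adra1d) couple through Gq to phospholipase C, the alpha2 receptors (Adra2a, Adra2b, Adra2c) couple through Gi and lower cAMP, and the beta1 receptor (Adrb1) couples through Gs and raises it. The nucleus accumbens (NAc) receives noradrenergic fibres from the brainstem, and alpha2 receptors also act as autoreceptors on noradrenergic terminals, whose own mRNA is mostly in cell bodies outside the NAc.

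The data comprised 50 RNA-seq libraries made from the NAc of C57BL/6 mice, with 2 mice pooled in each. All mice carried RiboTag (RT), an HA tag on the ribosomal protein Rpl22 that appears where Cre recombinase acts. Cre was driven by the dopamine receptor 1 or 2 gene of a BAC transgene (D1-Cre line FK150, D2-Cre line ER44), so that any cell in which the transgene was active was tagged, and not medium spiny neurons (MSNs) alone. Precipitation with an anti-HA antibody gave the D1-IP and D2-IP libraries, and the input libraries held RNA of the remaining supernatant of the same homogenates. Control mice (Con) were not defeated, whereas the others met a CD1 aggressor for up to 10 days, were tested for social interaction 24 h later and were called resilient (Res) or susceptible (Sus). The D1-IPs numbered 13, of which 4 were Con, 4 were Res and 5 were Sus. The D2-IPs numbered 15, with 5 of each state, and either line had 9 inputs, with 3 of each state. The mice of these IPs and inputs were 8 to 12 weeks old. The remaining 4 D1-IP libraries came from undefeated RT; Sirt1-floxed; D1-Cre mice and are called the libraries labelled Sirt1-KO. For these mice the labels give no age. The labels separate Res from Sus mice by behaviour after the defeat alone.

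Total counts on genes ran from 21591075 to 31009626 in the IPs and from 18384265 to 28179940 in the inputs, and those labelled Sirt1-KO had 22174187 to 31785984. The 4 D1-MSN markers *Drd1*, *Pdyn*, *Tac1* and *Chrm4* were all higher in D1-IPs than in D2-IPs, and the 4 D2-MSN markers *Drd2*, *Adora2a*, *Penk* and *Gpr6* were all lower. The D1-IPs also held more mRNA of cortical excitatory neurons. All 4 of 4 such markers (*Slc17a7*, *Tbr1*, *Neurod6*, *Neurod2*) were higher than in D2-IPs at a median log2 fold change of 2.02. Their summed level ran from 387 to 1390.0 CPM (counts relative to the TMM-scaled library size) in the D1-IPs, from 20.6 to 309 CPM in the D2-IPs and from 69.3 to 1094 CPM in the inputs, and no marker of this list was at 0 in every library of a group. Of 5 cholinergic markers, 4 were lower in D1-IPs, with summed levels of 7.73 to 30.6 CPM against 62.7 to 134.6 CPM in D2-IPs.

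The genes lie on 5 chromosomes of GRCm38 (mm10) in GENCODE vM21. For the alpha1 group, *Adra1a* is at chr14:66635251-66771168 on the + strand, *Adra1b* at chr11:43774606-43901210 on the - strand and *Adra1d* at chr2:131545850-131562283 on the - strand. The alpha2 genes each have 1 exon, with *Adra2a* at chr19:54044151-54048982, *Adra2b* at chr2:127363208-127367221 and *Adra2c* at chr5:35278319-35281763, all on the + strand. *Adrb1* is at chr19:56722199-56733113 on the + strand. An exon of *Adra1d* overlaps the antisense gene *Gm14285*. Whether counting used strand is not given in the sources used here, so that reads of this overlap could not be told apart by gene, and no other member overlaps an annotated gene.

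Upstream regions of 3 genes are shown, of a pair of genes that were higher in D1-IPs (*Adra1b*, *Adra2b*) and of *Adrb1*, for which no difference between D1-IP and D2-IP was called. Each is the 250 bases before a RefSeq start on GRCm38.p6, read 5′ to 3′ on the strand of the gene. Capitals mark a GC box (GGGCGG), the core of the cAMP response element (TGACG) or a TATA box (TATAAA), searched on both strands. The regions are chr11:43901238-43901487 (- strand) for *Adra1b*, chr2:127362929-127363178 (+ strand) for *Adra2b* and chr19:56721867-56722116 (+ strand) for *Adrb1*.
Adra1b: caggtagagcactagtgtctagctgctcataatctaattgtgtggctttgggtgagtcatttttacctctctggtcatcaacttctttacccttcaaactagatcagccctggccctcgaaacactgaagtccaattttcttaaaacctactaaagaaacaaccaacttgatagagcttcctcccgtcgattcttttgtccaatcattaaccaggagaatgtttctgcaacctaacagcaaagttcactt
Adra2b: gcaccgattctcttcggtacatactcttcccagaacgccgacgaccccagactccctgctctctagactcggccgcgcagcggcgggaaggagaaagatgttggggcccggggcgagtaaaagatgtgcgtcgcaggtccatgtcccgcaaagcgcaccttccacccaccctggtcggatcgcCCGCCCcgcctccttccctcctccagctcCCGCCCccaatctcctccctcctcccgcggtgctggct
Adrb1: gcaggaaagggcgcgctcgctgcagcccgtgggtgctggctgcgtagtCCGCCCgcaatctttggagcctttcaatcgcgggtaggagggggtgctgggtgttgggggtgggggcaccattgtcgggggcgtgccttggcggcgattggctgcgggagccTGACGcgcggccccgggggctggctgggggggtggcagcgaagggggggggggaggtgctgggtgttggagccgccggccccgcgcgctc
The *Adra1b* region held none of these motifs and 41.6% G and C, the *Adra2b* region held 2 GC boxes at 66.0% G and C, and the *Adrb1* region held 1 GC box and 1 core element at 74.0% G and C. A second RefSeq start of *Adra1b*, with its region at chr11:43836490-43836739, had 1 GC box, the *Adra2a* region had 1 GC box, 1 core element and 1 TATA box, and the *Adra2c* region had none. Of 32851 regions of the same length in the RefSeq table, 32.7% held a GC box, 17.8% a core element and 12.4% a TATA box. The whole response element (TGACGTCA, which contains the core) was in 1.55% of all regions and in none of these 6. *Adra1a* and *Adra1d* had no entry.

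The receptors differed widely in level. Because longer genes collect more reads, levels were compared between genes as CPM per kb of merged exons. The order depends on these GENCODE lengths, such as 8728 bases for *Adra1a* and 3382 for *Adrb1*. Whether reads were counted over the same exons is not known. In plain CPM the mean of *Adra1a* in inputs (16.6) was above that of *Adrb1* (15.6). *Adra2c* was highest in each kind of library, at 20.2 ± 1.92 CPM per kb in D1-IPs (SD, n = 13), 17.1 ± 2.05 in D2-IPs (SD, n = 15) and 11.3 ± 1.09 in inputs (SD, n = 18), and its range did not overlap that of any other member. *Adrb1* came next at 6.96 ± 1.105 in D1-IPs, 6.75 ± 0.534 in D2-IPs and 4.63 ± 0.629 in inputs. *Adra2a* followed in each, at 3.97 ± 1.02, 1.57 ± 0.219 and 3.21 ± 0.834. It was lower than *Adrb1* in every library, although the ranges of these genes over the libraries overlapped in D1-IPs and in inputs.

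The order of the other 4 genes depended on the kind of library. In D1-IPs *Adra2b* (2.39 ± 0.440 CPM per kb) and *Adra1b* (2.10 ± 0.586) followed, and *Adra2b* was the higher in only 8 of 13 libraries, so that these neighbours could not be ranked. *Adra1d* (1.08 ± 0.443) and *Adra1a* (0.905 ± 0.208) came last and also changed places between libraries, with *Adra1d* higher in 6 of 13. In D2-IPs *Adra2b* (1.37 ± 0.341) was above *Adra1b* (0.814 ± 0.177), *Adra1a* (0.714 ± 0.200) and *Adra1d* (0.629 ± 0.226), and neighbours among the last 3 were in the given order in 9 of 15 libraries. In inputs *Adra1a* came after *Adra2a* at 1.91 ± 0.159, above *Adra1b* (1.74 ± 0.316) in 13 of 18 libraries, and *Adra2b* was last at 0.765 ± 0.218, below *Adra1d* (mean 1.096 ± 0.644) in 12 of 18.

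**Figure D1:**
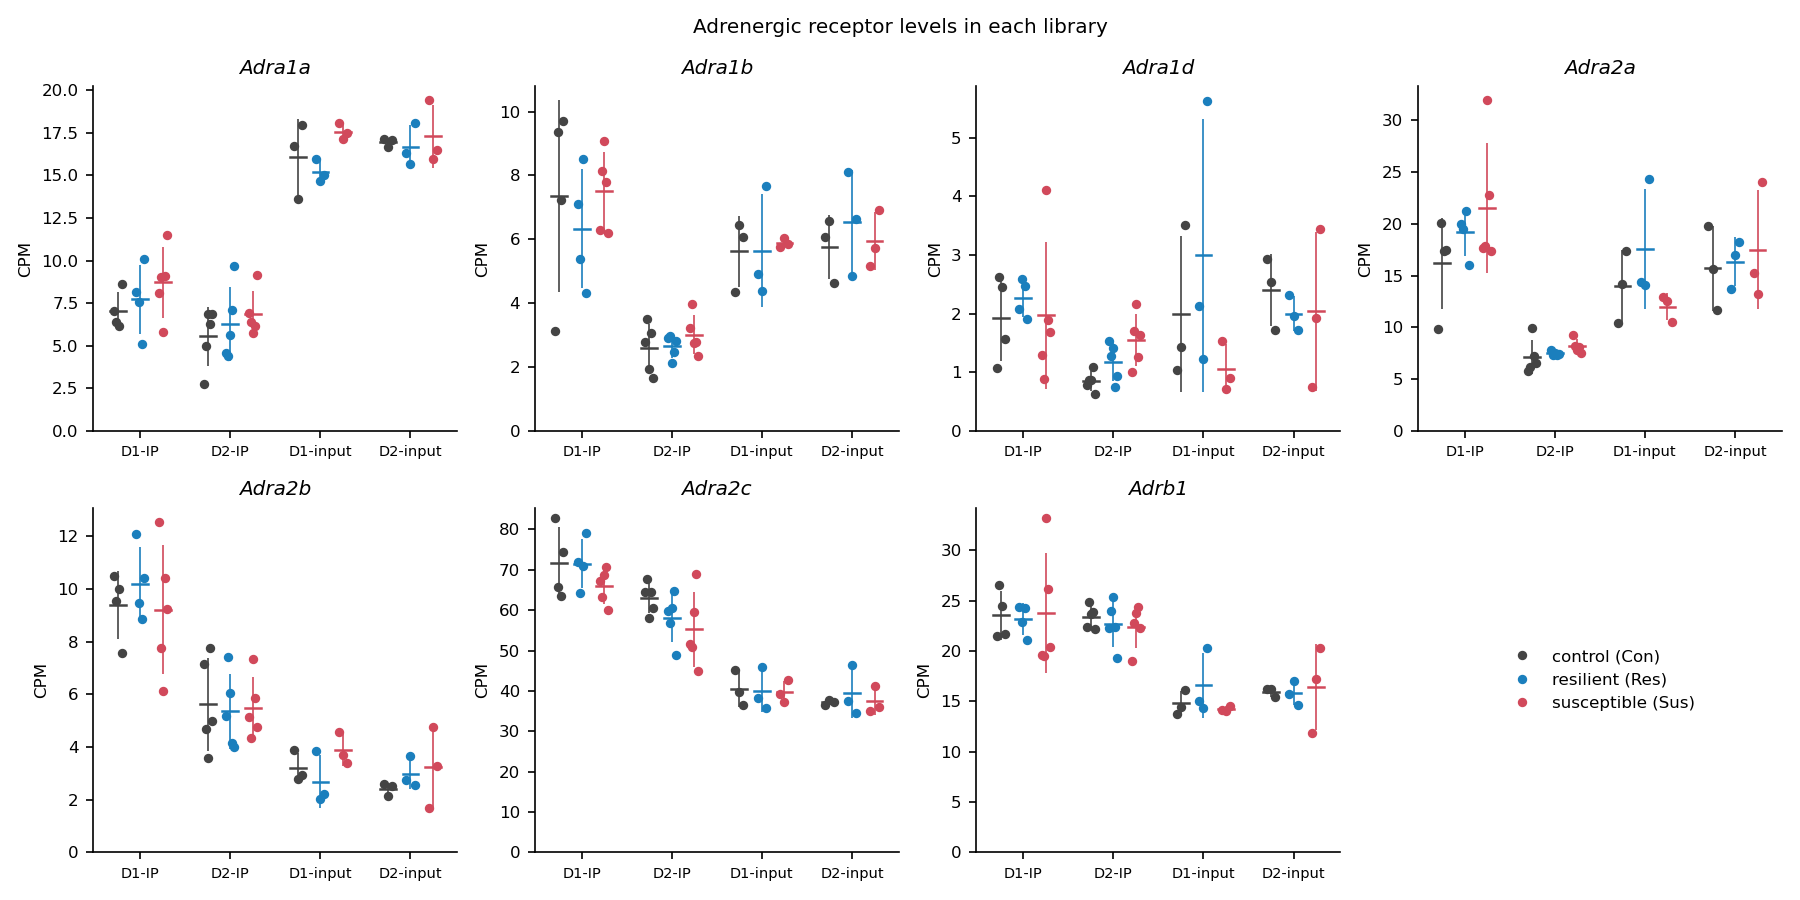
Level of each receptor in the 46 IP and input libraries, in CPM on axes that start at 0. Each point is a library of 2 pooled mice, horizontal lines are group means, vertical lines are ±1 SD, and colours are the stress states. *Adra1b* and *Adra2a* stand higher in D1-IP than in D2-IP, with 12 of 13 D1-IP libraries above all 15 D2-IP libraries, and *Adra1a* is lower in every IP than in every input of its line.

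D1-IPs were compared with D2-IPs to find receptors carried unequally by ribosomes of the tagged cells. Averaged over the 3 states, 4 of 7 members (*Adra1b*, *Adra1d*, *Adra2a*, *Adra2b*) were higher in D1-IPs and none was lower, by a rule that asked for more than 1.5-fold and for an adjusted p below 0.05 (edgeR quasi-likelihood test with Benjamini-Hochberg adjustment). Of 14224 genes tested, 7.66% passed this rule, 703 of them higher in D1-IPs and 386 lower. The median log2 fold change of the members was 0.79, against -0.02 over all genes tested. In such bulk samples a smaller share of cells with a transcript and less of it per cell cannot be told apart.

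Among the alpha1 receptors, the level of *Adra1b* ran from 3.14 to 9.69 CPM (median 7.22) in the 13 D1-IPs and from 1.64 to 3.96 CPM (median 2.78) in the 15 D2-IPs. The only D1-IP library within the D2-IP range was D1-IP Con 1. This gave a log2 fold change of 1.34 (SE 0.14, adjusted p = 9.85e-09). *Adra1d* ran from 0.879 to 4.10 CPM (median 1.90) in D1-IPs and from 0.628 to 2.16 CPM (median 1.097) in D2-IPs, on counts of 13 to 112 per library. Only 5 of 13 D1-IPs were above all D2-IPs, and the log2 fold change was 0.81 (SE 0.19, adjusted p = 0.000968). *Adra1a* ran from 5.11 to 11.5 CPM in D1-IPs and from 2.77 to 9.68 CPM in D2-IPs, which overlapped for all but 2 of 13 D1-IPs, and its log2 fold change of 0.32 (SE 0.14) did not pass (adjusted p = 0.0626).

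Among the alpha2 receptors, *Adra2a* ran from 9.88 to 32.0 CPM (median 17.9) in D1-IPs and from 5.79 to 9.91 CPM (median 7.51) in D2-IPs. Again 12 of 13 D1-IPs were above all D2-IPs and D1-IP Con 1 was the exception. This gave a log2 fold change of 1.30 (SE 0.10, adjusted p = 1.95e-11). *Adra2b* ran from 6.12 to 12.5 CPM (median 9.55) in D1-IPs and from 3.58 to 7.75 CPM (median 5.13) in D2-IPs, with 11 of 13 D1-IPs above all D2-IPs and a log2 fold change of 0.79 (SE 0.12, adjusted p = 3.78e-06). *Adra2c*, the most abundant member, ran from 59.9 to 82.9 CPM in D1-IPs and from 44.9 to 69.0 CPM in D2-IPs. Its log2 fold change of 0.23 (SE 0.05) had an adjusted p of 0.000957 and was under the 1.5-fold limit.

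*Adrb1* was nearly level, at 23.5 ± 3.74 CPM in D1-IPs (SD, n = 13) and 22.8 ± 1.80 CPM in D2-IPs (SD, n = 15). The log2 fold change was 0.03, with a 95% interval from -0.10 to 0.16, so that a difference of 1.5-fold lay outside it.

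These 4 members were also compared within single states. In Con mice 4 members passed (4.98% of genes did), in Res mice the same 4 (5.52%) and in Sus mice 3 (5.55%). *Adra2a* had log2 fold changes of 1.17 in Con, 1.34 in Res and 1.38 in Sus, *Adra1b* of 1.49, 1.24 and 1.30, and *Adra2b* of 0.72, 0.92 and 0.73. *Adra1d* went from 1.16 in Con and 0.92 in Res (adjusted p = 0.0203 and 0.0491) to 0.34 in Sus (adjusted p = 0.498), where it was -0.13 without D1-IP Sus 3. The Res call of *Adra1d* was lost when any 1 of 8 of the 9 libraries compared, all but D2-IP Res 1, was left out (log2 fold change 0.80 to 1.0002), and the Con call without D1-IP Con 2 or 3 or D2-IP Con 5 (0.98 to 1.07). In Con mice *Adra2b* also lost its call without these libraries or without D2-IP Con 2 or 3 (0.59 to 0.72).

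**Figure D2:**
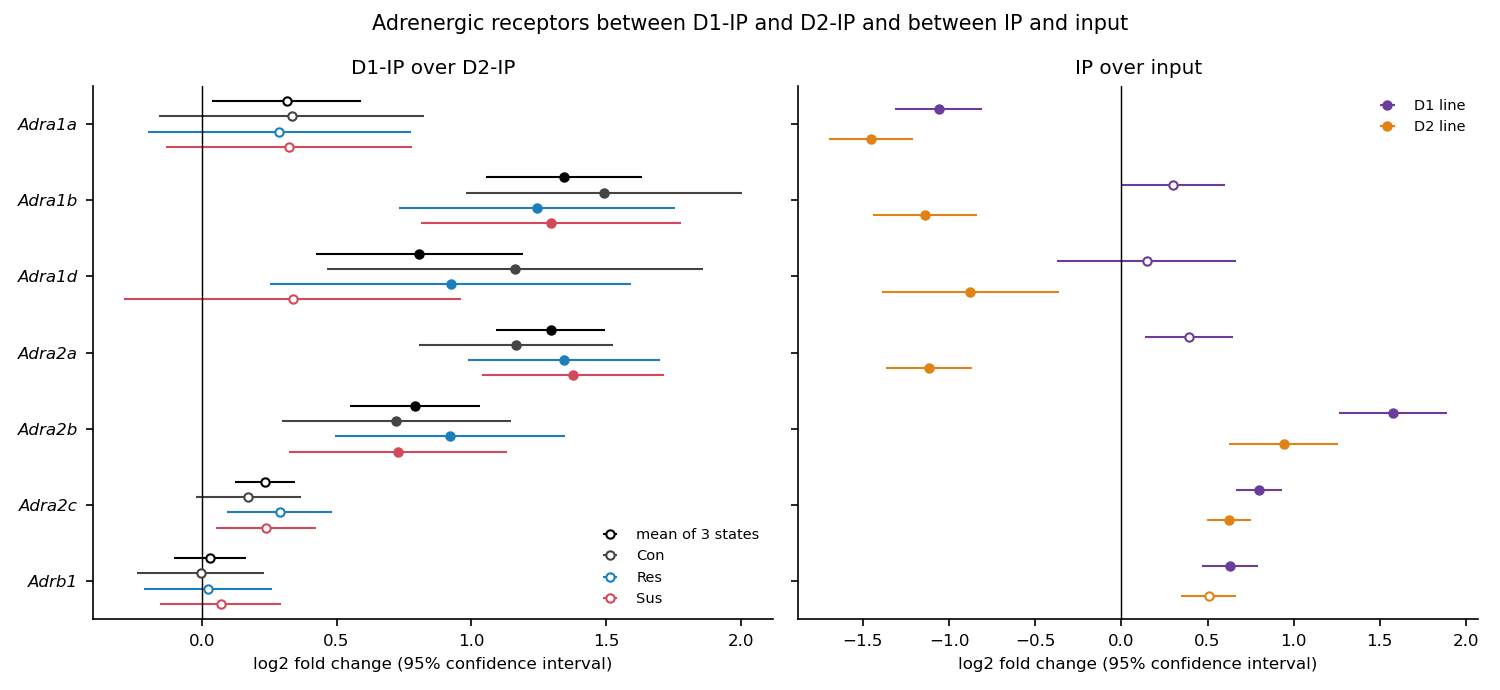
Log2 fold changes of the 7 receptors between D1-IP and D2-IP (left, averaged over the 3 states and within each) and between IP and input (right), with 95% confidence intervals. Filled points passed the rule for calls. *Adra1b*, *Adra2a* and *Adra2b* are filled in every comparison on the left, and *Adrb1* stays at 0.07 or less.

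The cortical markers moved with several of these genes. Over the 13 D1-IPs, which span 3 states and share their scaling, the log2 level of *Adra2a* and the log2 sum of the 4 cortical markers had r = 0.89 and rho = 0.75 (permutation p = 0.00014 and 0.00398, adjusted 0.00098 and 0.022 over 21 relations). Without the 2 libraries farthest from the median sum r was 0.67. For *Adra1b* r was 0.77 and rho 0.58 (permutation p = 0.00229 and 0.0403, adjusted 0.012 and 0.106), with r = 0.57 without the 2 farthest. For *Adra1d* r was 0.72 and rho 0.70 (permutation p = 0.00653 and 0.00997, adjusted 0.0274 and 0.0349), and r fell to 0.43 without them. *Adrb1* had r = 0.70 and rho = 0.70 (permutation p = 0.00797 and 0.00908, adjusted 0.0279 and 0.0349; r = 0.58 without the 2 farthest). *Adra2b* and *Adra2c* went the other way, with r = -0.51 (permutation p = 0.0743, adjusted 0.142) and r = -0.57 (permutation p = 0.0427, adjusted 0.0897), and *Adra1a* had r = -0.36.

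In the 15 D2-IPs, where the cortical sum was lower, r was -0.24 for *Adra1b*, 0.44 for *Adra1d* and -0.03 for *Adra2a*. Their rho was -0.39, 0.475 and 0.34 (adjusted permutation p = 0.288, 0.177 and 0.295). Without the 2 libraries farthest from the median sum, their r was -0.25, 0.42 and 0.47. The largest r over all 15 was 0.66 for *Adrb1* (permutation p = 0.0101, adjusted 0.0302). Its rho was 0.34 (adjusted 0.295), and its r without the 2 farthest was 0.47. In the 18 inputs *Adrb1* had r = 0.89 and rho = 0.92 and *Adra1d* r = 0.84 and rho = 0.90, each with a permutation p of 1e-05, the smallest that the resamples can give (adjusted 0.000105), and r was 0.86 and 0.84 without the 2 farthest. *Adra2a* had r = 0.53 and rho = 0.65 there (permutation p = 0.0242 and 0.0042, adjusted 0.0566 and 0.022; r = 0.70 without the 2 farthest). *Adra1b* had r = 0.54 and rho = 0.59 (permutation p = 0.0195 and 0.012, adjusted 0.0513 and 0.0359; r = 0.51 without them). D1-IP Con 1 had the lowest cortical sum of the D1-IPs (387 CPM) and D1-IP Sus 3 the highest (1390.0 CPM). These libraries also held the lowest (9.88 CPM) and highest (32.0 CPM) level of *Adra2a*. Without both, an alternative chosen after seeing the data, the log2 fold changes between D1-IPs and D2-IPs were 1.41 for *Adra1b*, 0.72 for *Adra1d*, 1.30 for *Adra2a* and 0.81 for *Adra2b*, and the same 4 passed. The part of cortical mRNA in the difference between D1-IPs and D2-IPs was not tested.

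**Figure D3:**
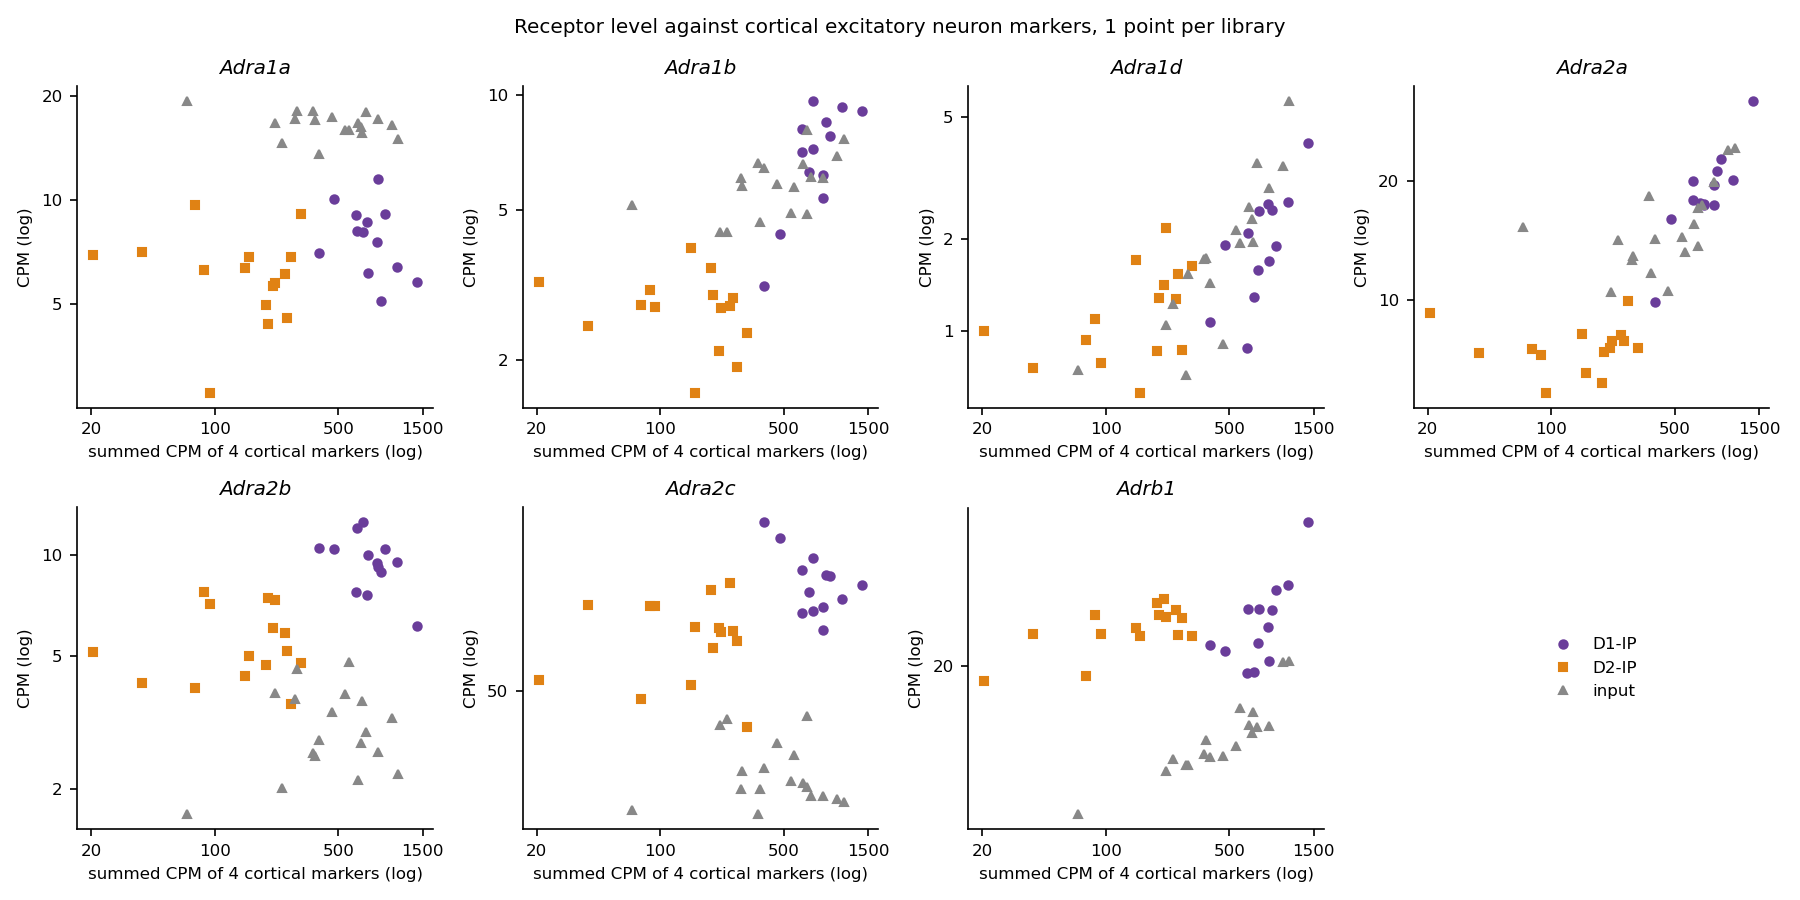
Level of each receptor against the summed level of 4 cortical excitatory neuron markers, 1 point per library, both in CPM on log axes. Circles are D1-IP, squares D2-IP and triangles input libraries. *Adra2a* rises with the cortical sum among the D1-IPs (r = 0.89, n = 13), while *Adra2b* and *Adra2c* do not.

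IPs were set against inputs to see which receptors were enriched or depleted on the tagged ribosomes relative to whole NAc tissue. IP and input of the same title came from the same homogenate of 2 mice. The main tests did not use this pairing and took the libraries as independent. With the pairs as a replicate block, 4 members in the D1 line and 6 in the D2 line were called, as in the main tests. In the D1 line *Adra2b*, *Adra2c* and *Adrb1* were higher in the IP and *Adra1a* was lower (4 of 7 members, where 43.1% of 15404 genes passed). In the D2 line *Adra2b* and *Adra2c* were higher and *Adra1a*, *Adra1b*, *Adra1d* and *Adra2a* lower (6 of 7 members, where 43.6% of genes passed). Markers of other cell types gave a scale for such depletion. All 6 of 6 microglia markers were lower in the IPs of both lines, at median log2 fold changes of -4.42 and -3.98 in the D1 and D2 lines. All 4 of 4 endothelial markers were lower too, at -3.88 and -3.57. All 6 of 6 astrocyte markers were lower in the IPs of both lines, at median log2 fold changes of -3.45 and -3.88, and all 3 of 3 oligodendrocyte precursor markers at -3.03 and -3.38. Of the 4 cortical markers 1 was higher in D1-IPs (median 0.73) and 4 were lower in D2-IPs (median -1.62), and their part in the values of the receptors was not tested.

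The level of *Adra1a* was 13.6 to 18.1 CPM (median 16.7) in the 9 D1-inputs against 5.11 to 11.5 CPM in the D1-IPs, and 15.6 to 19.4 CPM (median 16.7) in the 9 D2-inputs against 2.77 to 9.68 CPM in the D2-IPs. No IP reached any input of its line, and all 18 pairs of 1 title had the IP lower. The log2 fold change was -1.06 in the D1 line (SE 0.12, adjusted p = 3.46e-10) and -1.45 in the D2 line (SE 0.12, adjusted p = 2.59e-14). *Adra2b* moved in the opposite direction. It was at 2.01 to 4.56 CPM in D1-inputs and 1.67 to 4.77 CPM in D2-inputs, below all D1-IPs and below 9 of 15 D2-IPs, with log2 fold changes of 1.58 (SE 0.16, adjusted p = 4.14e-12) and 0.94 (SE 0.16, adjusted p = 7.73e-07).

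*Adra2c* was at 35.8 to 45.95 CPM in D1-inputs and 34.5 to 46.4 CPM in D2-inputs. All 13 D1-IPs and 14 of 15 D2-IPs were above every input of their line, and the log2 fold changes were 0.80 (SE 0.06, adjusted p = 1.26e-14) and 0.63 (SE 0.06, adjusted p = 7.73e-12). *Adrb1* was at 13.8 to 20.3 CPM and 11.8 to 20.3 CPM in the inputs of the D1 and D2 lines, and every IP of the 18 pairs was higher. Its log2 fold change passed in the D1 line (0.63, SE 0.08, adjusted p = 4.27e-09) and was under the 1.5-fold limit in the D2 line (0.51, SE 0.08, adjusted p = 2.76e-07), which it exceeded without D2-input Sus 3 (0.61).

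*Adra1b* and *Adra2a* were lower than input in the D2 line alone, and the difference between the lines was tested for both. *Adra1b* was at 4.35 to 7.66 CPM in D1-inputs and 4.64 to 8.10 CPM in D2-inputs, so that every D2-IP was below every D2-input (log2 fold change -1.14, SE 0.15, adjusted p = 4.95e-09), whereas the D1-IPs overlapped their inputs (0.30, SE 0.15, adjusted p = 0.0615). *Adra2a* was at 10.4 to 24.3 CPM and 11.7 to 24.0 CPM in the inputs. It was lower in every D2-IP than in every D2-input (-1.12, SE 0.12, adjusted p = 8.97e-11) and slightly higher in D1-IPs (0.39, SE 0.13, adjusted p = 0.00484), under the fold limit. *Adra1d* was the most variable in tissue, from 0.716 to 5.63 CPM in D1-inputs and 0.743 to 3.44 CPM in D2-inputs, and was lower in D2-IPs (-0.88, SE 0.25, adjusted p = 0.0018) but not in D1-IPs (0.15, SE 0.26, adjusted p = 0.601).

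The difference of the IP-to-input change between the lines was itself tested, at an adjusted p under 0.05, which 25.5% of genes passed. It was 1.44 for *Adra1b* (SE 0.21, adjusted p = 1.88e-06), 1.51 for *Adra2a* (SE 0.18, adjusted p = 2.64e-08), 1.02 for *Adra1d* (SE 0.36, adjusted p = 0.0327) and 0.63 for *Adra2b* (SE 0.22, adjusted p = 0.027) on the log2 scale. With IP and input of a title paired as a replicate block, *Adra1a* was called as well (0.45, adjusted p = 0.0219) and *Adra1d* no longer (0.92, adjusted p = 0.071). In Con libraries alone, where 5.09% of genes passed, *Adra1b* and *Adra2a* passed, and *Adra1d* (1.39, adjusted p = 0.129) and *Adra2b* (0.31, adjusted p = 0.665) did not. The call of *Adra1d* was also lost on leaving out any 1 of 11 of 46 libraries (0.78 to 0.97), which were D1-IP Con 2 and Sus 3, D1-input Con 1 and 2, Res 1 and 2, and Sus 2 and 3, and D2-input Con 1, Res 1 and Sus 3. That of *Adra2b* was lost without any 1 of 7 (0.48 to 0.59), which were D1-IP Res 1, D1-input Res 2 and 3 and Sus 2 and 3, and D2-input Res 2 and Sus 2. *Adra1a* passed without D2-IP Res 5 (0.43).

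The inputs of the lines did not separate the members. None of 7 passed between D1-line and D2-line inputs by edgeR, where 0.0138% of genes passed, and none had an unadjusted p under 0.05. DESeq2 called none of them either, and the log2 fold changes ran from -0.19 for *Adra2a* to 0.17 for *Adra2b*.

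Stress was examined within each kind of library, and a gene was counted at an unadjusted p under 0.05, as a rule that admits chance calls. In D1-IPs 1 of 7 members passed between Sus and Con (5.34% of genes did), none between Res and Con (2.11%) and none between Sus and Res (4.23%). In D2-IPs 2 of 7 passed between Sus and Con (3.68%), none between Res and Con (3.02%) and none between Sus and Res (1.66%). No member reached an adjusted p under 0.05 in any of the 6 comparisons by edgeR, and DESeq2 called the same numbers at an unadjusted p. The IP comparisons with Con share its libraries.

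In D1-IPs *Adra2a* was at 9.88, 20.1, 17.3 and 17.5 CPM in the 4 Con libraries, at 20.03, 19.5, 21.3 and 16.0 CPM in the 4 Res libraries and at 17.6, 17.9, 32.0, 22.8 and 17.4 CPM in the 5 Sus libraries. Only 2 Sus libraries were above all Con libraries, and D1-IP Con 1 and D1-IP Sus 3 stood farthest from their groups. The log2 fold change of Sus over Con was 0.41 (SE 0.17, 95% interval 0.07 to 0.76, edgeR adjusted p = 0.846). It was 0.24 without D1-IP Con 1, 0.22 without D1-IP Sus 3 and 0.05 without both, and none of these passed. Without both libraries *Adra1d* passed instead, at -0.63 against 0.03 with all libraries. The cortical sum was 387 to 1069.7 CPM in D1-IP Con and 631 to 1390.0 CPM in D1-IP Sus, and 0 of its 4 markers passed. All 4 D2-MSN markers passed in the lower direction, at a median log2 fold change of -0.23, and so did 2 of 5 general MSN markers (-0.10) and 1 of 4 endothelial markers, while 1 of 6 astrocyte markers was higher. The part of these differences in that of *Adra2a* was not tested.

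In D2-IPs *Adra1d* was at 0.786, 0.863, 0.865, 1.097 and 0.628 CPM in Con, at 1.53, 1.28, 1.41, 0.755 and 0.934 CPM in Res and at 0.999, 1.71, 2.16, 1.27 and 1.63 CPM in Sus. All but 1 of the 5 Sus libraries were above every Con library. The log2 fold change of Sus over Con was 0.86 (SE 0.33, 95% interval 0.18 to 1.54, edgeR adjusted p = 0.999), and without D2-IP Sus 3 it was 0.71 and did not pass. *Adra2c* was at 64.6, 67.7, 58.0, 64.4 and 60.5 CPM in D2-IP Con and at 51.7, 50.8, 59.7, 69.0 and 44.9 CPM in D2-IP Sus, which placed 3 of 5 Sus libraries below all Con libraries and 1 above them. Its log2 fold change was -0.19 (SE 0.09, edgeR adjusted p = 0.999), and the call was lost without any of 6 of the 10 libraries (-0.18 to -0.12), which were D2-IP Con 1, 2 and 4 and D2-IP Sus 1, 2 and 5. Of the 4 cortical markers 0 passed in this comparison, with sums of 87.4 to 272 CPM in Con and 20.6 to 309 CPM in Sus. Among the other lists, 1 of 6 astrocyte markers (median log2 fold change 0.27) and 1 of 3 oligodendrocyte precursor markers (0.36) were higher in D2-IP Sus and 1 of 6 markers of Sst, Npy and Pvalb interneurons was lower. Their part in the changes of *Adra1d* and *Adra2c* was not tested.

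The other members did not pass, and their intervals tell how large a change was still possible. Between Sus and Con in D1-IPs, the 95% interval of the log2 fold change was -0.22 to 0.25 for *Adrb1*, -0.32 to 0.07 for *Adra2c*, -0.45 to 0.38 for *Adra2b*, -0.45 to 0.51 for *Adra1b*, -0.62 to 0.68 for *Adra1d* and -0.19 to 0.78 for *Adra1a*. In D2-IPs it was -0.29 to 0.16 for *Adrb1*, -0.15 to 0.55 for *Adra2a*, -0.46 to 0.38 for *Adra2b*, -0.28 to 0.74 for *Adra1b* and -0.16 to 0.78 for *Adra1a*. A change of 1.5-fold in either direction was outside the interval for *Adrb1*, *Adra2b* and *Adra2c* in both lines, for *Adra1b* in D1-IPs and for *Adra2a* in D2-IPs. It was inside the interval for *Adra1a* in both lines, for *Adra1d* in D1-IPs and for *Adra1b* in D2-IPs. Between Res and Con in D1-IPs *Adra1b* passed at -0.46 without D1-IP Con 1, against -0.21 with it, and between Sus and Res *Adra1d* passed at -0.66 without D1-IP Sus 3, against -0.19 with it.

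The stress response was also compared between the lines. No member passed for Sus over Con (1.82% of genes did) or Res over Con (2.36%) at an unadjusted p under 0.05, by edgeR or by DESeq2. The largest difference was that of *Adra1d*, whose change in D1-IPs (0.03) minus that in D2-IPs (0.86) was -0.83 (SE 0.46, 95% interval -1.76 to 0.11). It passed without D1-IP Con 1 (-1.02), D1-IP Sus 3 (-1.29) or D2-IP Sus 1 (-0.95), and was -1.49 without both D1-IP libraries (adjusted p = 0.997). In the inputs none of 7 members passed between Sus and Con (4.48% of genes did), Res and Con (3.22%) or Sus and Res (5.56%), by edgeR or by DESeq2. The log2 fold changes of Sus over Con in the inputs ran from -0.52 for *Adra1d* (SE 0.42) to 0.35 for *Adra2b* (SE 0.21). *Adra1d* passed without D2-input Sus 3, at -0.92 for Sus over Con and -1.101 for Sus over Res, and *Adra2b* without D2-input Sus 1, at 0.49 and 0.47. For Sus over Res *Adra2a* also passed without D2-input Sus 3 (-0.39), and *Adra1a* without D2-input Sus 2, Sus 3 or Res 3 (0.16 to 0.17).

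**Figure D4:**
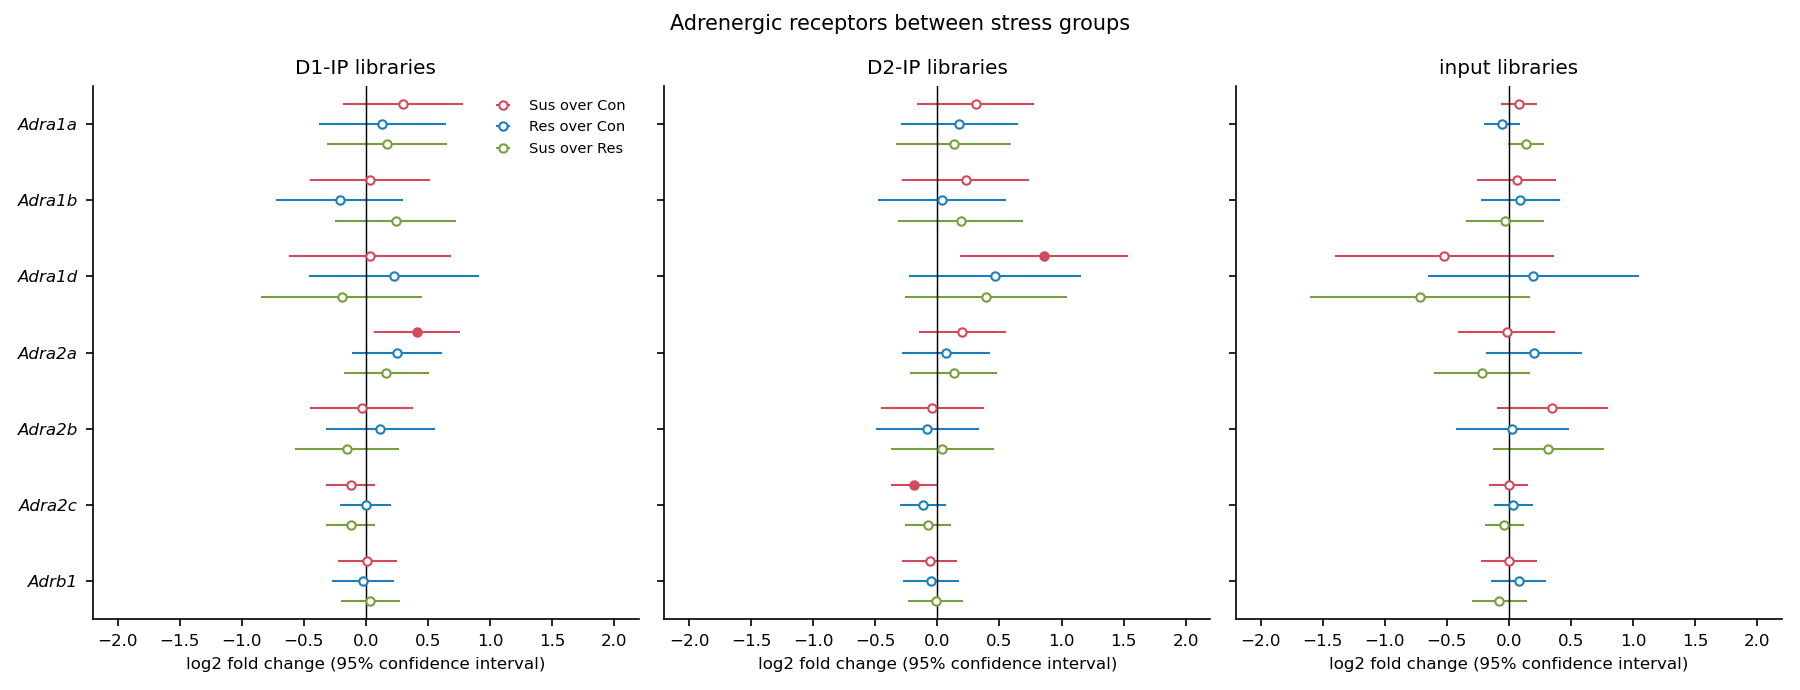
Log2 fold changes of the 7 receptors between stress groups in D1-IP, D2-IP and input libraries, with 95% confidence intervals. Filled points had an unadjusted p under 0.05: *Adra2a* in D1-IP (0.41) and *Adra1d* (0.86) and *Adra2c* (-0.19) in D2-IP, all between Sus and Con.

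In the libraries labelled Sirt1-KO, the targeted gene *Sirt1*, which encodes a deacetylase, was at 15.2, 16.2, 13.2 and 10.2 CPM, against 13.1, 16.6, 14.8 and 14.4 CPM in the 4 D1-IP Con libraries of the same table. These levels differed by -0.10 on the log2 scale (SE 0.13, edgeR adjusted p = 0.768). The tables count reads over the whole gene, and the deleted exons could not be looked at. These libraries were deposited in a table of their own with the Con libraries, and genotype cannot be told apart from any batch or any difference in age.

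No member passed the rule of 1.5-fold and an adjusted p against D1-IP Con by edgeR, where 0.749% of genes did. At an unadjusted p under 0.05, a looser rule, 2 members passed, where 2352 of 13626 genes did. DESeq2 called 1 member, where 1.64% of genes were called. *Adra2a* was at 26.7, 33.4, 34.9 and 20.1 CPM in the 4 libraries labelled Sirt1-KO and at 9.35, 19.0, 16.4 and 16.6 CPM in Con. The groups did not overlap, and the log2 fold change was 0.91 (SE 0.21, adjusted p = 0.0532). DESeq2 gave 0.91 with an adjusted p of 0.0242. *Adra1d* was at 3.19, 3.98, 4.29 and 1.35 CPM against 1.01, 2.49, 2.32 and 1.4996 CPM in Con. The library labelled Sirt1-KO 5 lay within the Con range, and the log2 fold change was 0.82 (SE 0.35, adjusted p = 0.25). Without Sirt1-KO 5 both genes passed, at log2 fold changes of 1.04 for *Adra2a* and 1.06 for *Adra1d*.

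The cortical sum differed in the same libraries. It was 1236, 1464, 1583 and 827 CPM in those labelled Sirt1-KO and 366, 1014, 694 and 695 CPM in Con. None of the 4 cortical markers passed the rule, at a median log2 fold change of 0.89. The library labelled Sirt1-KO 5 had the lowest sum and the lowest *Adra2a* of its group, and D1-IP Con 1 had both lowest values in Con. The summed D1-MSN markers were lower, at 896 to 1122 CPM against 1192 to 1469 CPM in Con, with 0 of 4 called. This was not particular to D1-MSN markers. The median log2 fold change was -0.34 for D1-MSN and for D2-MSN markers, and -0.27 for general MSN markers. It was -0.36 for oligodendrocyte and -0.54 for astrocyte markers, and 0.34 for mural and 0.18 for catecholamine neuron markers. None of these was called. In 2 other lists 1 marker each was called lower, of 4 tested for cholinergic neurons (median log2 fold change -1.001) and of 6 for Sst, Npy and Pvalb interneurons (0.03). The part of these differences in that of *Adra2a* was not tested. The other members had log2 fold changes of -0.07 for *Adra1a*, 0.25 for *Adra1b*, -0.04 for *Adra2b*, -0.17 for *Adra2c* and 0.20 for *Adrb1*, with adjusted p from 0.312 to 0.917.

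**Figure D5:**
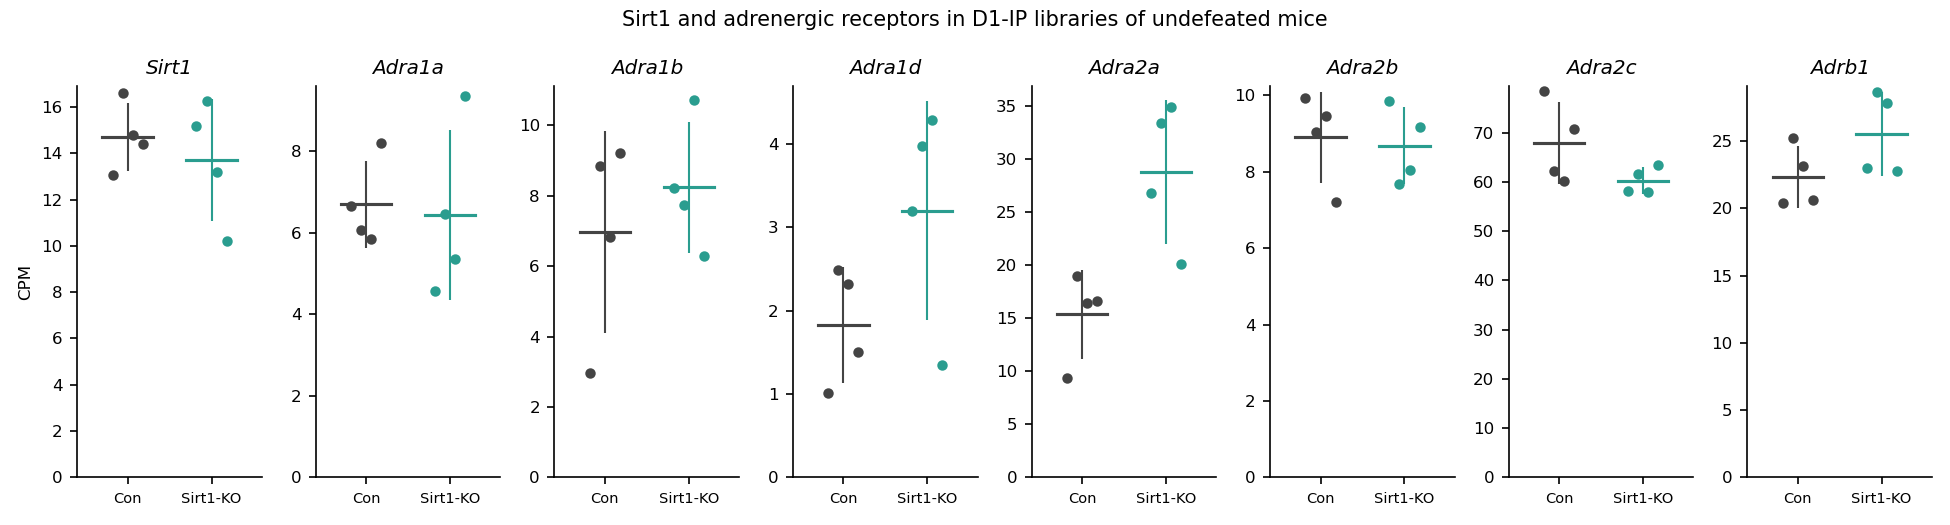
Level of *Sirt1* and the 7 receptors in D1-IP libraries of undefeated mice, in CPM on axes that start at 0, for 4 Con libraries and the 4 libraries labelled Sirt1-KO. Points are libraries, horizontal lines means and vertical lines ±1 SD. *Sirt1* overlaps between the groups and *Adra2a* does not (9.35 to 19.0 against 20.1 to 34.9 CPM).

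Around the receptors, 36 genes of noradrenaline synthesis, packaging, uptake, breakdown and signalling were followed, of which 34 passed the filter in the IPs. Between D1-IPs and D2-IPs 2 were higher and 2 lower, at a median log2 fold change of 0.01 (4 of 34 called, where 7.66% of all genes were). *Gna14*, a Gq-family alpha subunit, differed by 3.14 (SE 0.32, adjusted p = 4.70e-09) and *Prkca*, a protein kinase C downstream of Gq, by 0.71 (SE 0.06, adjusted p = 4.61e-11). *Th*, the first enzyme of catecholamine synthesis, was lower by -0.76 (SE 0.10, adjusted p = 2.87e-07) and *Slc18a2*, the vesicular monoamine transporter, by -0.94 (SE 0.29, adjusted p = 0.0107).

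Against the inputs, 7 of these genes were higher and 5 lower in D1-IPs, and 8 were higher and 7 lower in D2-IPs. These are 12 and 15 of 34, where 43.1% and 43.6% of all genes passed. *Plcb3*, a phospholipase C, was lower in both (-2.78 and -2.39), and *Prkcb*, another protein kinase C, higher in both (1.07 and 1.13). *Gna14* was higher in D1-IPs (0.67) and lower in D2-IPs (-1.90). Between the lines the IP-to-input change differed for 15 of 34 genes, where it did for 25.5% of all genes. In the stress comparisons at most 3 of the list passed an unadjusted p under 0.05, none at an adjusted p under 0.05. These 3 were among 33 tested between Res and Con in the inputs, where 3.22% of all genes passed. Between Sus and Con in D2-IPs 1 of 34 was higher and 1 lower, where 3.68% of all genes passed. *Slc22a3*, a transporter that clears noradrenaline, fell by 0.45 on the log2 scale in D2-IP Sus against Con (SE 0.13, edgeR adjusted p = 0.999). None passed in the libraries labelled Sirt1-KO.

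Genes whose log2 CPM over the 28 IPs was most like that of a member were also found, by Pearson's r among 14224 genes, as a description in which the difference between the lines, scaling and depth are shared. For *Adra2a* they were *Syt13*, *Ncald* and *Nrg3* (0.98, 0.98 and 0.97), and for *Adra1b* *Camk2n2*, *Smyd2* and *Rassf5* (0.94 each). For *Adra2b* they were *Lrpap1*, *Asic4* and the D1-MSN marker *Drd1* (0.87 each), and for *Adra1a* *Ppp1r12b*, *Xkr4* and *Wdfy3* (0.85, 0.83 and 0.82). The lowest were those of *Adra1d* (*C1ql3*, *Fam13c* and *Rhou*, 0.84, 0.82 and 0.82), *Adra2c* (*Pink1*, *Kcns2* and *Fam234b*, 0.82, 0.81 and 0.81) and *Adrb1* (*Gria3*, *Zbtb18* and *Matn2*, 0.76, 0.76 and 0.74).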

How the data were processed

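The deposited values were raw counts per gene symbol, which the authors made by trimming with cutadapt, aligning to mm10 with STAR and counting with HTSeq. For the libraries labelled Sirt1-KO the submitters' notes do not name the counter. Versions, annotation and strand setting are not given in the sources used here. Of the columns, 2 without a sample description were not used, and 5 entries naming no gene were left out. These entries held 18.0% to 28.3% of the reads in IPs and 35.9% to 40.0% in inputs. The part of this difference in the changes from input to IP was not tested.

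Counts were normalized by TMM and tested with edgeR 4.0.16 in R 4.3.3 by quasi-likelihood F tests with Benjamini-Hochberg adjustment over all genes kept by filterByExpr (minimum count 10, minimum total 15), in models of the 28 IPs, all 46 libraries, the inputs and the Sirt1-KO table, where the 4 D1-IP Con libraries recur with identical counts. CPM came from the model of all 46 libraries or from the Sirt1-KO table, which were scaled separately. The rules for calls followed the study, with a fold of 1.5 and an adjusted p of 0.05 between lines, and an unadjusted p of 0.05 between stress groups. The alternatives included DESeq2 1.42.0, RLE factors, library totals, all genes with counts, and each library left out. Programs were tested on simulated data.

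IP and input of a title came from the same homogenate by the protocol in the labels, and deviations of these 18 pairs correlated at a median of 0.11 (-0.37 to 0.67). Replicates are pools of 2 mice. No pair of the 76 replicate pairs was a duplicate. The members, lists and rules were chosen with earlier results of these data known. The named genes were the members, *Sirt1*, genes of the noradrenaline list called in a comparison (up to 4, by size), and the 3 genes most alike to each member. Of marker lists for 14 cell types, those that moved with a member are given, and 1 marker is not reported here. Relations with marker sums used 100000 resamples, two-sided. Permutations and figures used Python 3.11.15, numpy 2.4.6 and matplotlib 3.10.9.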

Additional observations from a re-analysis of the deposited data

Results flagged for a closer look

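The change from input to IP differed between the lines for 4 of 7 receptors and for 25.5% of all genes, as a tested difference on the log2 scale (D1 line minus D2 line, edgeR). It was 1.44 for *Adra1b*, 1.02 for *Adra1d*, 1.51 for *Adra2a* and 0.63 for *Adra2b*. The call of *Adra1d* was lost without any 1 of 11 of the 46 libraries and that of *Adra2b* without any 1 of 7. Neither passed in Con libraries alone. Among 49 combinations of a receptor and a group of 4 or 5 libraries, none had a library that stood apart by Dixon's criterion, which chance alone meets in about 1 of 20.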

How the results depend on the processing

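Of 882 values of single receptors under other settings, 856 kept their side of the threshold (some of those not called changed sign), 13 newly passed, 12 no longer passed and 1 passed with the sign reversed. The calls between D1-IPs and D2-IPs numbered 4 for the mean of the 3 states in each setting that kept the fold limit. Without the limit they numbered 5, where 40.8% of all genes passed. With each library left out, they ranged from 2 to 4 in Con, from 3 to 4 in Res and from 3 to 3 in Sus. Leaving out each library also gave 4 to 4 calls for D1-IP against input, 6 to 7 for D2-IP against input, and 2 to 5 for the difference between lines (2 without D1-input Res 2, Sus 2 or Sus 3). It gave 0 to 1 for D1-IP Sus against Con, Res against Con and Sus against Res, 1 to 2 for D2-IP Sus against Con, 0 to 1 for the stress change of Sus against Con between lines, 0 to 1 for input Sus against Con, 0 to 3 for input Sus against Res (3 without D2-input Sus 3), and 0 to 2 for Sirt1-KO. With the replicate number as a replicate block, input Sus against Res had 1 call (*Adra1a*) and Sirt1-KO 2 (*Adra1d* at 1.28, *Adra2a* at 1.19). The protocol pairs IP and input of a title and no other groups, which share a number alone. The correlations of deviations did not set these kinds of pairs apart (median 0.11 over 18 pairs of IP and input, 0.14 over 66 IP pairs and -0.01 over 45 input pairs, and 0.02 to 0.17 over 3 Sirt1-KO pairs). Apart from *Adra1a* and *Adra1d* in the line difference, the block changed no other call. For Sirt1-KO, keeping every gene with at least 1 count gave 1 call and DESeq2 gave 1, both *Adra2a*. In Con libraries only, the line difference had 2 calls, where 5.09% of genes passed. In models of only the libraries compared, D1-IP Sus against Con had 0 and D2-IP Sus against Con 1, and at an adjusted p both had 0. Without D1-IP Con 1 and Sus 3, chosen after seeing the data, D1-IP Res against Con had 1 call (*Adra1b*, -0.46), Sus against Res 1 (*Adra1d*, -0.66) and the stress change of Sus against Con between lines 1, and *Adra1d* in D1-IP Sus against Con reversed to -0.63 (adjusted p = 0.896). With library totals in place of TMM the median of all genes moved from -0.04 to -0.23 in D1-IP against input and from -0.08 to -0.21 in D2-IP against input, and *Adra1d* in the D1 line turned from 0.15 to -0.04, neither called, while *Adrb1* (D1 line, 0.44) and *Adra2c* (D2 line, 0.51) no longer passed the fold limit. The causes were not tested. *Adra1d* rested on 13 to 135 counts per library, the fewest of the members, which limits its precision.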

Other observations

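Among the receptors themselves, the pair most alike over the 28 IPs was *Adra1b* and *Adra2a* (r = 0.89), and the pair held within the 13 D1-IPs (0.75) but not within the 15 D2-IPs (-0.02). *Adra1d* and *Adrb1* had r = 0.84 within the D1-IPs and 0.21 within the D2-IPs, although their r over all IPs was 0.54. *Adra2b* and *Adra2a* had r = 0.63 over all IPs, -0.46 within the D1-IPs and -0.38 within the D2-IPs, so that the sign over all IPs differed from the sign inside either line. *Adra1a* had r of -0.61 with *Adrb1* in the D1-IPs and -0.57 with *Adra2b* in the D2-IPs. These values are descriptions over libraries that share scaling, and none was tested.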
